A study of Homo sapiens with 6 samples.

Results

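The genes described here are those whose symbol begins with EIF or EEF and a digit and that have a row of their own in the deposited gene table, which gave 59 genes of 18268 rows. They were sorted by role into 10 groups. The measurements come from 6 RNA sequencing libraries of MIA PaCa-2, an established human pancreatic carcinoma line labelled as epithelial. In 3 libraries the cells are labelled as overexpressing LINC00901, a long noncoding RNA, and in 3 they carried the empty pCDH vector as control. All 6 share the line and the same medium, DMEM with fetal bovine and horse serum. The labels do not say whether the lines are clones or the replicates separate cultures, so p-values measure the spread between these libraries, which may be technical. The level of LINC00901 was not analysed here, so the labelled overexpression was not checked.

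Translation initiation factors bring the small ribosomal subunit, the initiator tRNA and the mRNA together, and elongation factors then carry aminoacyl-tRNAs to the ribosome and move it along the message. Translation is held in check mainly at eIF2, whose phosphorylation by the EIF2AK kinases blocks recycling by its exchange factor eIF2B, and at the cap-binding factor eIF4E, which the 4E-BP proteins sequester when mTORC1 is inactive. Many factors of this machinery are made from mRNAs that begin with a C followed by a run of pyrimidines, the 5′ terminal oligopyrimidine (TOP) start, through which mTORC1 and LARP1 control their translation.

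Values are FPKM, fragments per kilobase of gene scaled to the mapped fragments of a library, so levels of different genes can be set side by side. In bulk RNA, fewer cells of a kind and less RNA per cell cannot be told apart. FPKM values summed to 127768 to 128538 in the overexpression libraries and to 87162 to 88738 in the vector libraries, and the depth behind them is unknown. A row was tested when its 6 values averaged 1 FPKM or more, which left 9694 rows and 57 of the 59 factors. The groups were compared with limma on log2(FPKM + 0.5), and a gene is called higher or lower at a Benjamini-Hochberg adjusted p under 0.05 over all tested rows. The median tested row was itself higher by 0.27 log2 (1.20-fold) in the overexpression libraries. Log2 differences below are therefore given relative to it, while p-values and calls come from the unscaled fit unless a scaling is named. Of 4 epithelial markers with a row, KRT18 and KRT19 were present and EPCAM and CDH1 stayed at or below 0.14 FPKM, with sums of 85.4 to 112 FPKM in overexpression libraries and 94 to 110 FPKM in vector libraries. Within that sum KRT19 stood at 22.89 to 25.02 FPKM with overexpression and 2.22 to 5.92 FPKM with the vector, and KRT18 at 62.48 to 86.92 FPKM with overexpression and 90.93 to 105.38 FPKM with the vector, so the groups did not overlap for either gene and lay in opposite order. Of the mesenchymal markers, VIM stood at 543.43 to 633.62 FPKM with overexpression and 197.85 to 250.45 FPKM with the vector, while ZEB1 overlapped, at 2.56 to 3.98 FPKM with overexpression and 2.61 to 3.39 FPKM with the vector. The sums of 4 fibroblast markers, mainly COL1A2, were 12 to 18 FPKM with overexpression and 18.4 to 19.4 FPKM with the vector. The part of these markers in the results below was not tested. Immune, endothelial, acinar and islet markers stood at 0 or close to it, with CD14 highest at 1.37 FPKM.

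The first bases of the transcripts are shown for factors whose level the results turn on, to let the TOP start be read beside the differences that follow. Each line holds 10 bases before and 20 bases from the RefSeq start on GRCh38.p14, 5′ to 3′ on the gene's strand, with the tract in capitals. A tract is a C at the start followed directly by at least 4 bases that are each C or T, read on the transcript's strand only. The elongation factor genes were EEF1A1 (chr6:73521013-73521042, minus strand), EEF1B2 (chr2:206159885-206159914, plus strand, the start with the tract of its 2) and EEF2 (chr19:3985444-3985473, minus strand). The eIF3 subunit genes were EIF3D (chr22:36529147-36529176, minus), EIF3F (chr11:7987327-7987356, plus), EIF3K (chr19:38619178-38619207, plus) and EIF3M (chr11:32583821-32583850, plus). The eIF4 genes were EIF4A2 (chr3:186783567-186783596, plus) and EIF4B (chr12:53006446-53006475, plus). EIF4G2 (chr11:10807977-10808006, minus) is shown as a gene without the tract, and it was not called unscaled. EIF1 and EIF4G1 also lack the tract, were called higher unscaled and are not shown, so the display is no comparison of the 2 kinds.
EEF1A1: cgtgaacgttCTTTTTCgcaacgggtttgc
EEF1B2: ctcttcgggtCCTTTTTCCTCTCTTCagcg
EEF2: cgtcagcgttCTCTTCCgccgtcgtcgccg
EIF3D: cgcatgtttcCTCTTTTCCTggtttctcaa
EIF3F: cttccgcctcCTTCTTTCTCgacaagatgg
EIF3K: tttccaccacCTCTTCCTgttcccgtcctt
EIF3M: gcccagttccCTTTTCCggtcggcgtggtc
EIF4A2: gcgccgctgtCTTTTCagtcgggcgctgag
EIF4B: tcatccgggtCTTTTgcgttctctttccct
EIF4G2: tgtcggaagcacttccctaacttgcgcctg

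Factors as a whole were mostly higher in cells overexpressing LINC00901. Of the 57 tested, 32 were called higher, against 37.4% of all tested rows, and 2 were called lower, EIF1AD and EIF2S3B, against 11.9%. The other 23 did not pass. The median factor differed by a relative log2 of 0.27, with single factors between -2.66 and 1.22. Every overexpression library lay above every vector library for 36 factors, which held for 44.9% of all tested rows, and below for 3 factors, against 15.6%. The factors together took 2.76%, 2.87% and 2.76% of the summed FPKM in the overexpression libraries, against 1.97%, 2.10% and 2.02% in the vector libraries. Most of that gap lay in EEF1A1 and EEF2. Without them the share was 1.17% to 1.19% in overexpression libraries and 1.08% to 1.17% in vector libraries.

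**Figure D1:**
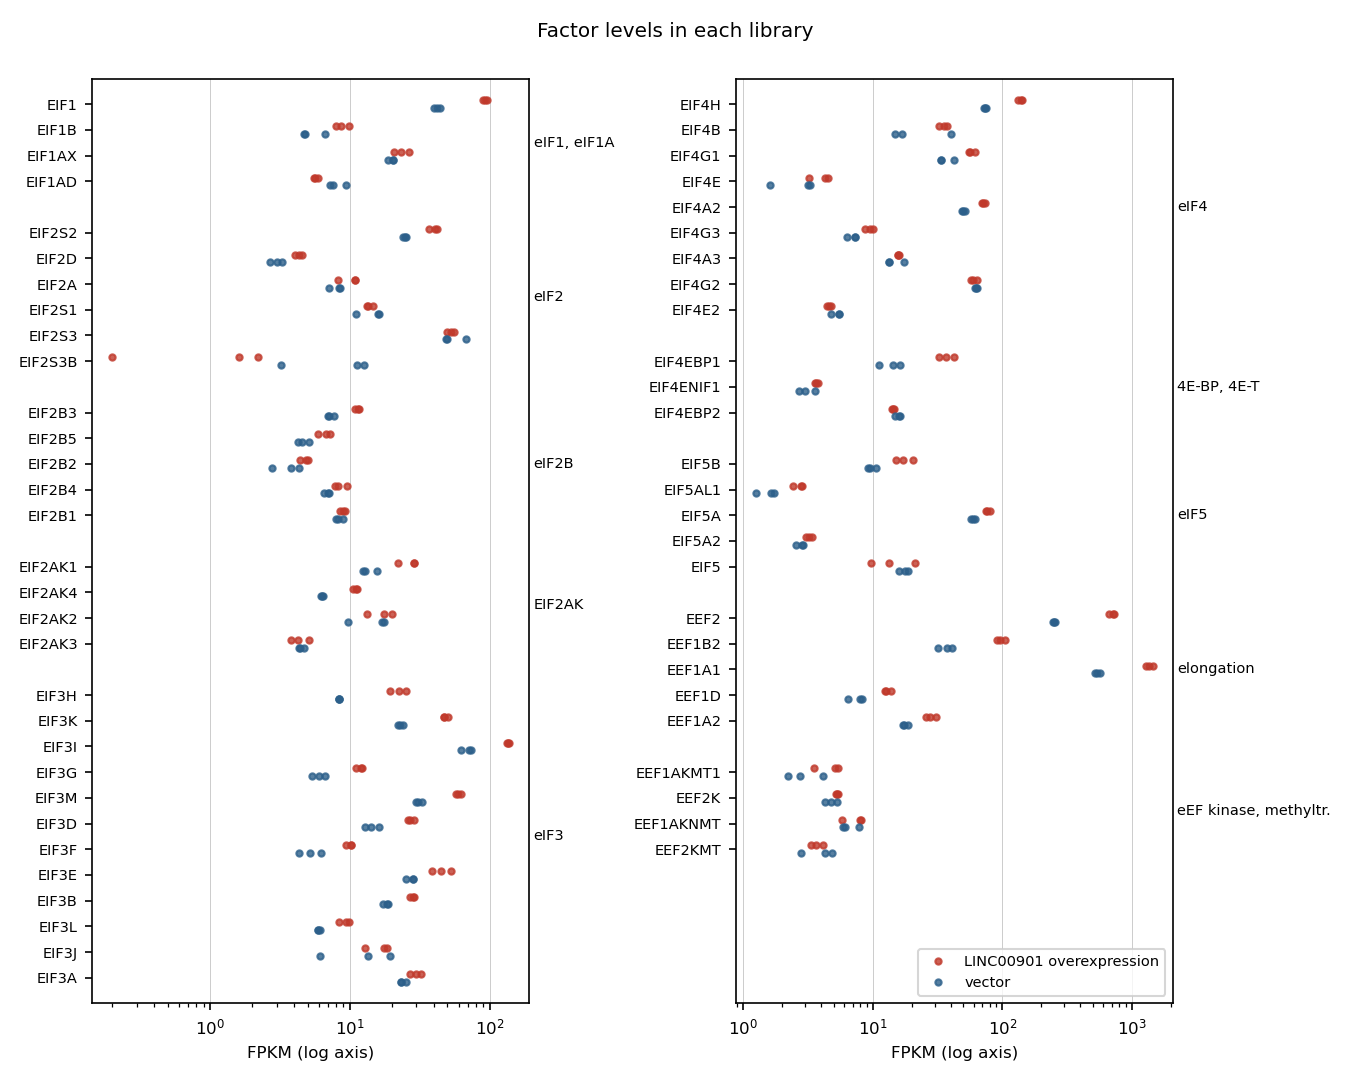
FPKM on a log axis of the 57 tested factors in each of the 3 LINC00901 overexpression libraries (red) and the 3 vector libraries (blue), grouped by role. The groups stand clear of each other for EEF2, EEF1A1, EIF1 and most eIF3 subunits, while EIF4B, EIF3J, EIF2AK2 and EIF5 spread widely within a group.

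The count of factors called higher has to be read beside their level, since genes of high level were shifted upward in general. When all tested rows were split into 5 equal classes of mean FPKM, 22.0%, 27.8%, 32.7%, 41.6% and 62.6% were called higher from the lowest class to the highest. Factors lay high, with a median of 14.7 FPKM against 4.99 FPKM over all tested rows, and 31 of the 57 fell in the highest class. Of those 31, 21 were called higher and 0 lower, with a median unscaled log2 difference of 0.68, against 0.54 for all rows of that class. In the next class 8 of 13 factors were called higher, and in the middle class 1 of 6. The median longest transcript was 3792 bases in the 56 factors that have one, against 3722 bases over all tested rows with a length. Calls went with length too. In 5 equal classes of length, 57.3% of rows were called higher in the shortest and 21.6% in the longest. Of the factors, 10 of 12 in the shortest class and 3 of 8 in the longest were called higher.

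Scaling changed how many calls stood. Centring each library on its median left 25 factors called higher (24.0% of all rows) and 5 lower (19.2%). A correction for transcript length and GC content left 20 of 56 higher (18.0%) and 4 lower (18.1%). Quantile normalization gave 17 higher (19.2%) and 8 lower (20.9%), and cyclic loess, which removes a trend of the difference with level, gave 17 higher (20%) and 8 lower (21%). The factors called higher under all 5 scalings numbered 12. They were EEF1B2, EEF1D, EEF2, EIF1, EIF2AK1, EIF2AK4, EIF3D, EIF3F, EIF3H, EIF3K, EIF3M and EIF5B. EIF1AD and EIF2S3B were called lower under all 5. The share of all tested rows called under all 5 was not taken in either direction. Whether the 12 exceed what other genes of this level would give was therefore not tested. EIF4A2 and EIF5A were called higher unscaled and lower under quantile normalization and cyclic loess, and EIF5A also under the length and GC correction.

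**Figure D2:**
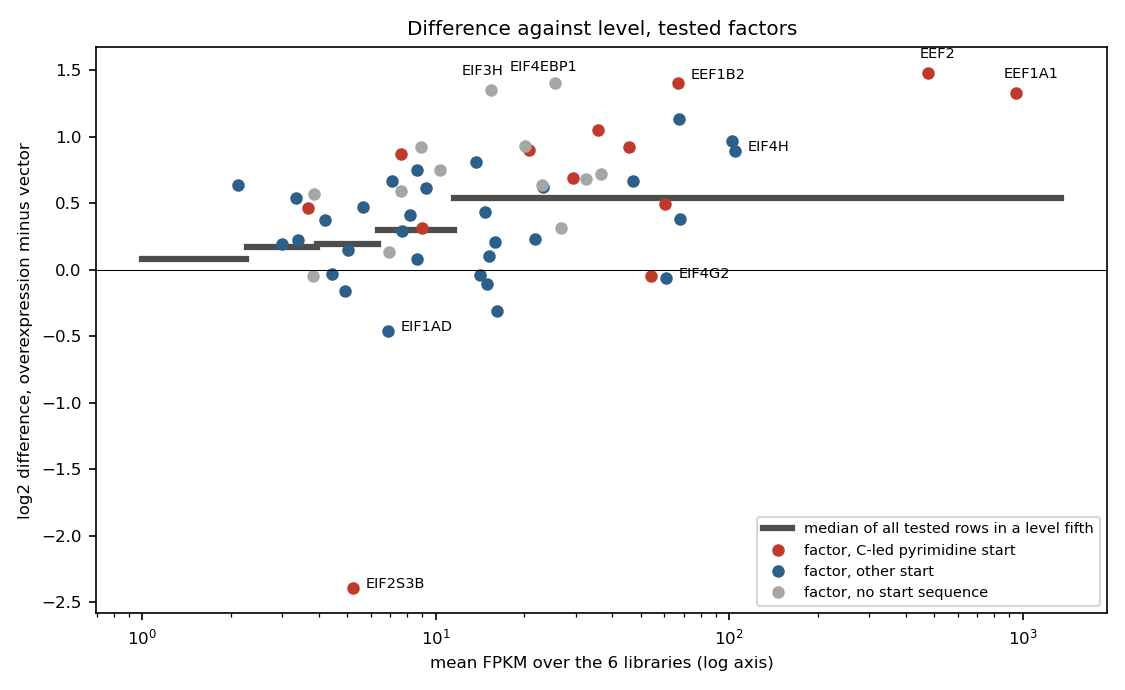
Unscaled log2 difference (overexpression minus vector) against mean FPKM on a log axis for the 57 tested factors, coloured by whether a RefSeq start has the C-led pyrimidine tract. Grey bars give the median difference of all tested rows in each of 5 equal classes of level, from 0.08 in the lowest to 0.54 in the highest. EEF1A1 and EEF2 lie at the far right, both above 1.30.

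The elongation factors formed the group with the largest median difference, at a relative log2 of 1.06. All 5 tested were called higher, against 37.4% of all tested rows and 62.6% of those in the highest class of mean FPKM. The median level of these 5 was 66.9 FPKM. EEF1A1 delivers aminoacyl-tRNA to the ribosome and was the most abundant factor. It had 1344.54, 1448.28 and 1289.86 FPKM with overexpression, against 520.34, 566.63 and 538.06 FPKM in the vector libraries. The groups lay far apart, by a relative log2 of 1.06 (SE 0.06, limma adjusted p = 4.09e-05). Under scalings that remove the level trend this was not seen: the EEF1A1 difference was 0.09 log2 with cyclic loess (adjusted p = 0.292) and -0.05 log2 with quantile normalization.

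EEF2, the translocase, stood at 662.59, 731.00 and 716.39 FPKM in overexpression libraries and at 249.96, 247.30 and 256.49 FPKM in vector libraries. Its relative log2 difference of 1.22 (SE 0.05, limma adjusted p = 3.77e-05) was the largest of all factors, and with cyclic loess EEF2 was still called higher, by 0.38 log2 (adjusted p = 0.00254).

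EEF1B2 is a subunit of the exchange factor that reloads eEF1A with GTP. It had 104.63, 91.41 and 95.43 FPKM with overexpression, against 37.43, 40.49 and 31.93 FPKM with the vector, a relative log2 difference of 1.14 (SE 0.10, limma adjusted p = 0.000182). EEF1D, another exchange subunit, had a relative log2 difference of 0.49. EEF1G, the remaining subunit, has no row of its own. The joined row TUT1;EEF1G, which is not counted among the 59, averaged 149 ± 8.78 FPKM in overexpression libraries and 56.1 ± 4.91 FPKM in vector libraries (SD, n = 3).

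EEF1A2 is the paralogue of EEF1A1 that is known from muscle and neurons and from some carcinomas. It stood at 25.66, 30.98 and 27.85 FPKM in overexpression cells, against 18.73, 17.45 and 17.19 FPKM in vector cells (relative log2 0.38, SE 0.09, limma adjusted p = 0.00178). As a share of the summed EEF1A1 and EEF1A2 FPKM it took 1.87%, 2.09% and 2.11% with overexpression, against 3.47%, 2.99% and 3.10% with the vector. Both genes were called higher unscaled, neither was with cyclic loess (adjusted p = 0.309 for EEF1A2), and the share of EEF1A2 was lower in every overexpression library than in any vector library.

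The 4 genes of enzymes that modify elongation factors and carry an EEF symbol and a row of their own did not pass. Of EEF2K, the kinase that inhibits eEF2, the methyltransferase genes EEF2KMT and EEF1AKMT1, and EEF1AKNMT, 0 of 4 were called in either direction. Of all tested rows 37.4% were called higher and 11.9% lower. The limma adjusted p ranged from 0.0853 for EEF1AKMT1 to 0.835 for EEF2KMT, and only the 95% interval of EEF1AKMT1 (0.01 to 1.13, unscaled log2) left out 0. EEF1AKMT1 had 5.15, 3.52 and 5.40 FPKM with overexpression, against 2.23, 4.12 and 2.76 FPKM with the vector, and was called higher without vector replicate 2. EEF2KMT had 3.35, 4.14 and 3.64 FPKM with overexpression, against 2.77, 4.81 and 4.27 FPKM with the vector. Groups overlapped in both genes. EEF2K stood at 5.20, 5.32 and 5.38 FPKM in overexpression libraries and at 4.74, 4.26 and 5.26 FPKM in vector libraries, and the groups overlapped. The ratio of EEF2 to EEF2K within a library was 127, 137 and 133 with overexpression, against 52.7, 58.1 and 48.8 with the vector. A single factor per library cannot alter this ratio, but a trend of the difference with level can. With cyclic loess, which removes such a trend, EEF2 differed by 0.38 log2 and EEF2K by -0.05 log2.

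The eIF3 complex is the largest initiation factor and bridges the small ribosomal subunit to the cap complex. Of its 12 tested subunit genes, 11 were called higher and 0 lower, against 37.4% and 11.9% of all tested rows. In the highest class of mean FPKM 62.6% of all rows were called higher, and the eIF3 genes had a median of 22 FPKM. Their median relative log2 difference was 0.62. Median centring left 10 called higher, the length and GC correction 8, and quantile normalization and cyclic loess 7 each, with 0 lower under any of them. EIF3H, a core subunit, stood at 19.40, 22.45 and 25.17 FPKM in overexpression libraries, against 8.37, 8.42 and 8.39 FPKM in vector libraries. The vector values were almost identical and all overexpression values lay more than 10 FPKM above them (relative log2 1.09, SE 0.11, limma adjusted p = 0.000219).

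EIF3K, EIF3M, EIF3F, EIF3E and EIF3L, which with EIF3H belong to the core octamer, had relative log2 differences of 0.79, 0.66, 0.61, 0.45 and 0.32. EIF3K averaged 48.5 ± 1.99 FPKM in overexpression libraries and 23.2 ± 0.935 FPKM in vector libraries (SD, n = 3 each). Of the peripheral subunits, EIF3I, EIF3G, EIF3D and EIF3B had 0.71, 0.66, 0.63 and 0.35. EIF3G and EIF3L were not called with the length and GC correction (limma adjusted p = 0.257 and 0.0531). The scaffold subunit gene EIF3A was called with the smallest difference, at 32.47, 26.95 and 29.84 FPKM with overexpression, against 25.06, 23.31 and 23.22 FPKM with the vector. Its relative log2 of 0.04 (SE 0.09, limma adjusted p = 0.0289) was close to that of the median row. The EIF3A call was lost after median centring (adjusted p = 0.388), without overexpression replicate 1 or 3 and without vector replicate 2 or 3 (adjusted p up to 0.0831), and its sign turned with cyclic loess (-0.24 log2).

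EIF3J, a loosely bound subunit that acts in 40S recruitment and recycling, was the eIF3 gene that did not pass. It had 18.32, 17.69 and 12.81 FPKM with overexpression, against 6.09, 19.43 and 13.60 FPKM with the vector, where replicate 1 stood low and replicate 2 high. EIF3C and EIF3CL appear only in joined rows. EIF3C;NPIPB9 averaged 20.4 ± 0.885 FPKM in overexpression libraries and 12.2 ± 0.781 FPKM in vector libraries, and NPIPB6;EIF3CL 25.9 ± 1.61 FPKM with overexpression, against 17.1 ± 1.30 FPKM with the vector (SD, n = 3). Although the proteins assemble into a single complex, mRNA levels per length differed widely. EIF3I was highest at 136 ± 2.48 FPKM with overexpression and 69.1 ± 5.97 FPKM with the vector. EIF3L was among the lowest at 9.22 ± 0.734 FPKM with overexpression and 5.96 ± 0.116 FPKM with the vector. EIF3F stood next to it, at 9.95 ± 0.512 FPKM with overexpression and 5.26 ± 0.963 FPKM with the vector, and the values of these 2 genes overlapped in both groups (SD, n = 3 each).

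**Figure D3:**
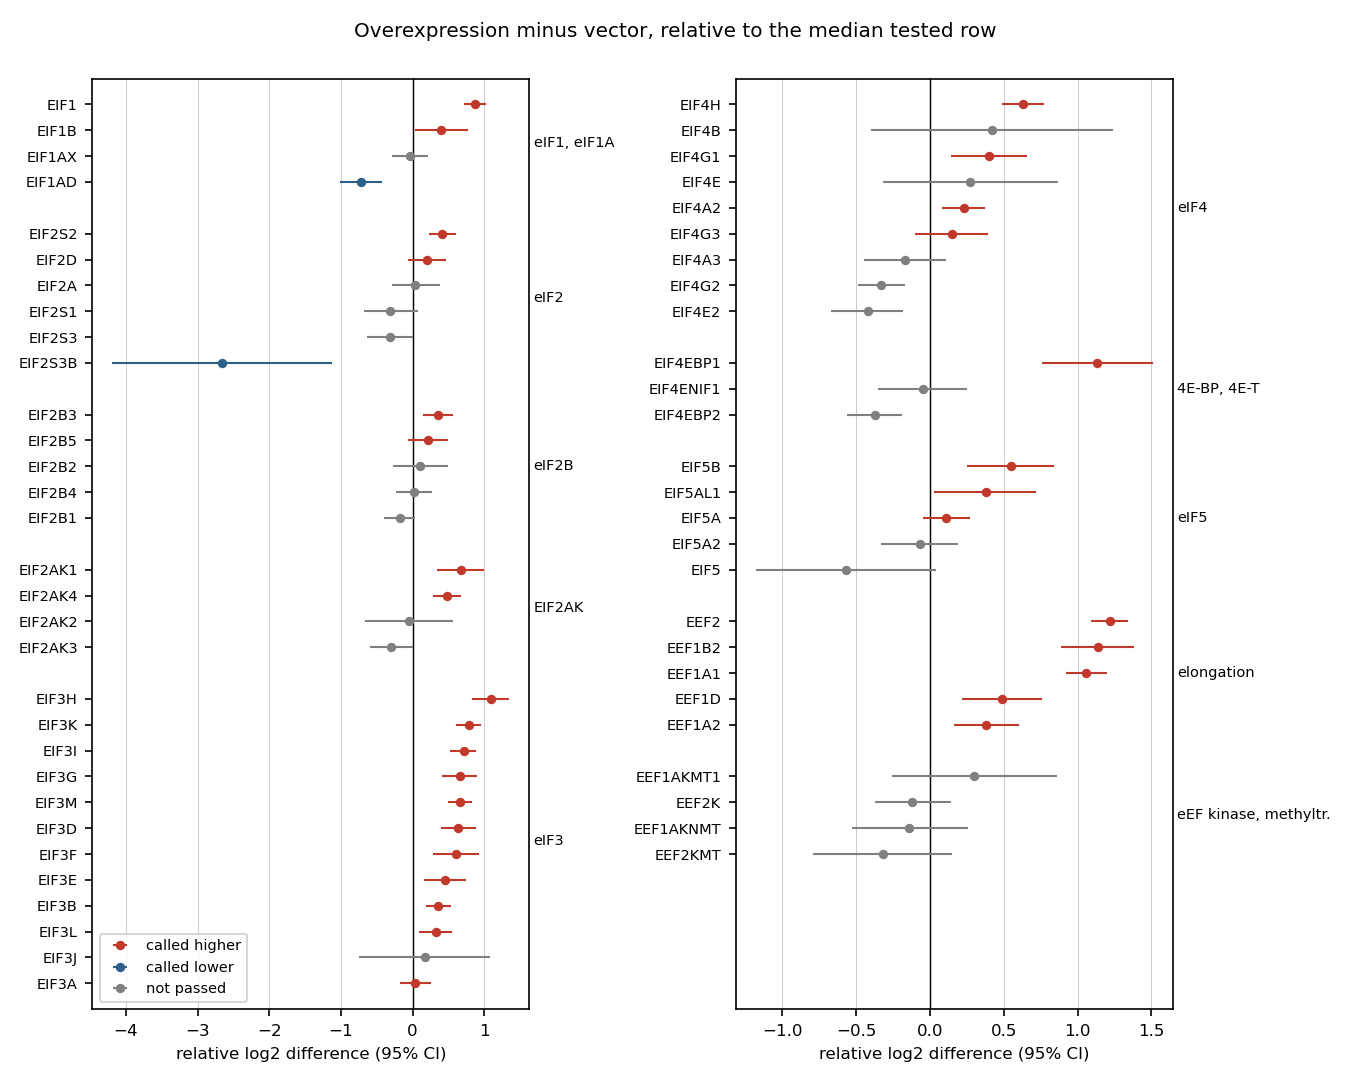
Log2 difference (overexpression minus vector) relative to the median tested row for the 57 factors, with 95% confidence intervals from limma, coloured by the unscaled call. The points of all 5 elongation factors and 12 eIF3 genes lie to the right of 0, with the intervals of EIF3A and EIF3J crossing it, while the eIF2, eIF2B and eIF5 groups straddle it. Panels have different axes.

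eIF2 carries the initiator tRNA as a trimer of an alpha subunit (EIF2S1), a beta subunit (EIF2S2) and a gamma subunit (EIF2S3). The median relative log2 difference of this group was -0.13. Of 6 genes 2 were called higher and 1 lower, against 37.4% and 11.9% of all tested rows. Of the trimer's 3 genes, EIF2S2 was the one called. It stood at 41.04, 41.82 and 37.08 FPKM in overexpression libraries, against 24.01, 25.03 and 25.29 FPKM in vector libraries (relative log2 0.41, SE 0.08, limma adjusted p = 0.000716). The difference was 0.09 log2 with cyclic loess (adjusted p = 0.366).

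EIF2S1, whose phosphorylated product is the signal of the integrated stress response, had 14.74, 13.19 and 13.49 FPKM with overexpression, against 11.04, 16.29 and 15.87 FPKM with the vector. The groups overlapped (relative log2 -0.31, 95% interval -0.68 to 0.07, limma adjusted p = 0.848). EIF2S3 had 56.04, 49.72 and 52.81 FPKM with overexpression and 49.81, 67.45 and 48.55 FPKM with the vector, where replicate 2 stood high (relative log2 -0.31, limma adjusted p = 0.781). With cyclic loess EIF2S3 was called lower, at -0.74 log2 (adjusted p = 0.00654). The ratio of EIF2S2 to EIF2S1 was 2.78, 3.17 and 2.75 in overexpression libraries, against 2.17, 1.54 and 1.59 in vector libraries. Of the alternative initiator tRNA factors, EIF2D had a relative log2 difference of 0.20 (limma adjusted p = 0.0142) that did not pass after median centring (adjusted p = 0.101), and EIF2A had 0.04 (limma adjusted p = 0.111).

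EIF2S3B is a copy of EIF2S3 on chromosome 12. It stood at 1.60, 0.20 and 2.22 FPKM with overexpression, against 12.71, 3.21 and 11.35 FPKM with the vector, so that all overexpression values lay below all vector values. Its relative log2 difference was -2.66 (SE 0.65, limma adjusted p = 0.0207), the lowest of all factors, and the call was lost without vector replicate 1 or 3 (adjusted p up to 0.0637). The longest GENCODE transcripts of EIF2S3 and EIF2S3B aligned over 1561 columns with 97.4% identical bases, so reads could be assigned to either. The identity is visible at the starts, shown for EIF2S3 (chrX:24054946-24054975, plus strand, GRCh38.p14) and EIF2S3B (chr12:10505880-10505909, plus strand), with the tract in capitals.
EIF2S3: gatttccttcCTCTTTTggcaacatggcgg
EIF2S3B: gactttcttcCTCTTTTggcaacatggcgg
Vector replicate 2 had the highest EIF2S3 value and the lowest EIF2S3B value of its group. EIF2S3B took 2.78%, 0.401% and 4.03% of the summed FPKM of both genes in overexpression libraries, against 20.3%, 4.54% and 18.9% in vector libraries. How far read assignment enters these values was not tested.

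eIF2B reloads eIF2 with GTP. Of its 5 subunit genes 2 were called higher and 0 lower, against 37.4% and 11.9% of all tested rows. Their median relative log2 difference was 0.11. EIF2B3 stood at 10.92, 11.41 and 11.67 FPKM in overexpression libraries, against 6.99, 7.06 and 7.70 FPKM in vector libraries (relative log2 0.35, SE 0.09, limma adjusted p = 0.00169), and was not called with the length and GC correction (adjusted p = 0.329). EIF2B5, the catalytic subunit gene, had a relative log2 difference of 0.21 (limma adjusted p = 0.0148), and the call was lost without overexpression replicate 3 (adjusted p = 0.0599) and after median centring (0.0955). EIF2B1, a regulatory subunit gene, had the lowest log2 difference of the 5 (relative log2 -0.18), at 9.22, 8.99 and 8.48 FPKM with overexpression, against 8.95, 8.22 and 7.99 FPKM with the vector, with overlapping groups. EIF2B2 and EIF2B4 had limma adjusted p of 0.0967 and 0.0586.

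The 4 kinases that phosphorylate eIF2 alpha answer to different stresses. EIF2AK1 (HRI) responds to heme shortage and mitochondrial stress, EIF2AK2 (PKR) to double-stranded RNA, EIF2AK3 (PERK) to unfolded protein in the endoplasmic reticulum and EIF2AK4 (GCN2) to uncharged tRNA. EIF2AK1 and EIF2AK4 were called higher, under all 5 scalings, and the other 2 under none. Of all tested rows 37.4% were called higher unscaled, and 18.0% to 24.0% under the other scalings, each taken alone. EIF2AK1 stood at 22.31, 28.70 and 28.67 FPKM in overexpression libraries and at 12.87, 12.38 and 15.67 FPKM in vector libraries (relative log2 0.67, SE 0.14, limma adjusted p = 0.00186). EIF2AK4 stood at 11.10, 11.21 and 10.62 FPKM with overexpression and at 6.45, 6.33 and 6.24 FPKM with the vector (relative log2 0.48, SE 0.08, limma adjusted p = 0.000661). In both genes every overexpression value exceeded every vector value by a wide margin.

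EIF2AK2 had 13.25, 17.64 and 19.95 FPKM with overexpression, against 9.66, 17.72 and 17.13 FPKM with the vector. The lowest library of each group was replicate 1, the groups overlapped, and the interval was wide (relative log2 -0.05, 95% interval -0.66 to 0.56, limma adjusted p = 0.512). EIF2AK3 had 5.07, 4.25 and 3.81 FPKM with overexpression and 4.38, 4.69 and 4.32 FPKM with the vector, also overlapping (relative log2 -0.30, limma adjusted p = 0.845). The ratio of EIF2AK4 to EIF2AK3 was 2.19, 2.64 and 2.79 in overexpression libraries, against 1.47, 1.35 and 1.44 in vector libraries, and that of EIF2AK1 to EIF2AK3 was 4.40, 6.75 and 7.52 with overexpression, against 2.94, 2.64 and 3.63 with the vector.

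The eIF4 factors recognise the cap, unwind the leader and recruit the ribosome. Of 9 tested genes 4 were called higher and 0 lower, against 37.4% and 11.9% of all tested rows. In the highest class of mean FPKM 62.6% of all rows were called higher. The median relative log2 difference of the eIF4 genes was 0.23. Median centring gave 3 higher and 2 lower, and quantile normalization and cyclic loess each gave 0 higher and 3 lower, so the direction of this group depends on the scaling. EIF4H, a cofactor of the helicase, had the largest difference, at 141.47, 132.34 and 137.97 FPKM with overexpression, against 75.36, 73.26 and 72.18 FPKM with the vector (relative log2 0.63, SE 0.06, limma adjusted p = 0.000127). With cyclic loess the EIF4H difference was 0.08 log2 (adjusted p = 0.320).

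Of the scaffold genes, EIF4G1 and EIF4G3 were called higher unscaled. EIF4G1, the main cap-complex scaffold, stood at 55.37, 55.83 and 61.85 FPKM in overexpression libraries, against 33.39, 33.45 and 42.12 FPKM in vector libraries (relative log2 0.40, SE 0.11, limma adjusted p = 0.00294). With cyclic loess EIF4G1 showed 0.00 log2 (adjusted p = 0.981). EIF4G2 (DAP5), which lacks the eIF4E-binding part, stood at 63.25, 57.27 and 58.78 FPKM with overexpression, against 61.19, 63.63 and 62.49 FPKM with the vector. It did not pass unscaled (relative log2 -0.33, limma adjusted p = 0.454) and was called lower after median centring (adjusted p = 0.0139) and with cyclic loess (0.00052). EIF4G1 took 43.0%, 45.8% and 47.5% of the summed FPKM of EIF4G1, EIF4G2 and EIF4G3 with overexpression, against 32.8%, 32.3% and 37.6% with the vector. EIF4G3 had 10.04, 8.68 and 9.59 FPKM with overexpression, against 7.30, 6.34 and 7.27 FPKM with the vector. Its limma adjusted p of 0.0162 became 0.139 after median centring and up to 0.0584 without overexpression replicate 1 or 3.

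The cap-binding genes did not pass. EIF4E stood at 4.28, 3.21 and 4.55 FPKM with overexpression, against 3.27, 3.15 and 1.62 FPKM with the vector, where replicate 3 was low (relative log2 0.27, 95% interval -0.32 to 0.87, limma adjusted p = 0.114). EIF4E2 (4EHP), a competitor at the cap, stood at 4.47, 4.63 and 4.76 FPKM with overexpression, against 4.72, 5.47 and 5.50 FPKM with the vector. Unscaled it had a limma adjusted p of 0.239, and it was called lower after median centring (adjusted p = 0.0268). EIF4E1B, the oocyte paralogue, was listed at 0.07, 0.00 and 0.06 FPKM against 0 in every vector library, below the filter. EIF4E3 appears only in the joined row FOXP1;EIF4E3;AC097634, which was at or below 0.14 FPKM.

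Of the helicase genes, EIF4A2 stood at 73.17, 70.25 and 68.96 FPKM in overexpression libraries, against 49.12, 50.08 and 51.56 FPKM in vector libraries (relative log2 0.23, SE 0.06, limma adjusted p = 0.00105). The sign of the EIF4A2 difference turned with cyclic loess, to -0.23 log2 (adjusted p = 0.0215). EIF4A1 is held in the joined row EIF4A1;CD68;SENP3, at 36.1 ± 1.93 FPKM with overexpression, against 24.9 ± 1.92 FPKM with the vector (SD, n = 3). EIF4A3, which serves the exon junction complex, had 15.7 ± 0.154 FPKM with overexpression and 14.8 ± 2.34 FPKM with the vector (SD, n = 3, limma adjusted p = 0.517). EIF4B, the helicase activator with a TOP start, had 32.31, 37.05 and 35.58 FPKM with overexpression, against 14.77, 39.89 and 16.78 FPKM with the vector. Vector replicate 2 lay above all overexpression libraries (limma adjusted p = 0.140), and without it the unscaled log2 difference of 0.69 became 1.12 and was called.

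Of the inhibitors and the transporter of eIF4E, 1 of 3 was called higher, against 37.4% of all tested rows. EIF4EBP1 (4E-BP1), an inhibitor released from eIF4E on phosphorylation by mTORC1, stood at 32.44, 41.98 and 36.87 FPKM in overexpression libraries, against 14.31, 11.10 and 16.08 FPKM in vector libraries. The relative log2 difference was 1.13 (SE 0.16, limma adjusted p = 0.000667), and it was called under all scalings except the length and GC correction, where EIF4EBP1 had an adjusted p of 0.0814. EIF4EBP2 (4E-BP2) stood at 14.33, 14.13 and 14.68 FPKM with overexpression, against 14.77, 15.84 and 16.08 FPKM with the vector. The groups did not overlap, but the unscaled difference did not pass (relative log2 -0.37, limma adjusted p = 0.282), and after median centring EIF4EBP2 was called lower (adjusted p = 0.0156). The ratio of EIF4EBP1 to EIF4EBP2 was 2.26, 2.97 and 2.51 in overexpression libraries, against 0.969, 0.701 and 1 in vector libraries. EIF4EBP3 is held in a joined row with ANKHD1, at 16.1 ± 0.879 FPKM with overexpression, against 14.6 ± 1.18 FPKM with the vector (SD, n = 3). EIF4ENIF1 (4E-T), which carries eIF4E into the nucleus and to P-bodies, had 3.67 ± 0.115 FPKM with overexpression, against 3.11 ± 0.453 FPKM with the vector (SD, n = 3, limma adjusted p = 0.193).

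**Figure D4:**
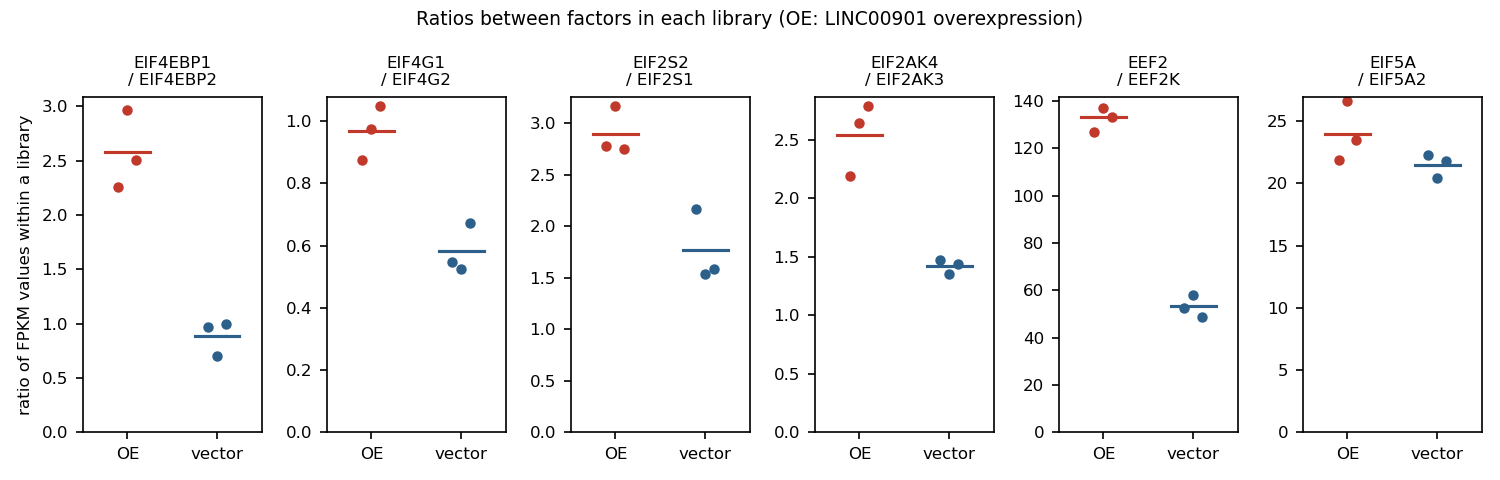
Ratios of FPKM values between pairs of factors within each library, for LINC00901 overexpression (OE, red, left) and vector (blue, right), with a line at the mean of 3 libraries and every axis starting at 0. The groups are apart in the first 5 panels and overlap for EIF5A over EIF5A2.

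Ratios within a library were taken for 11 pairs of factors. In 8 the groups did not overlap, each with an exact permutation p of 0.1 (two-sided, 3 libraries against 3). This is the smallest p the design allows and becomes 0.138 after Benjamini-Hochberg adjustment over the 11. The 8 include EIF4E over EIF4E2, at 0.957, 0.693 and 0.956 with overexpression, against 0.693, 0.576 and 0.295 with the vector. There overexpression replicate 2 and vector replicate 1 were equal to 3 digits, so FPKM values of 2 decimals do not settle their order. The share over other pairs of genes was not taken. Of single tested rows, 44.9% had every overexpression library above every vector library and 15.6% below. Pairs such as EEF2 over EEF2K set a called gene over one not called, so their separation partly restates the calls. The overlapping pairs were EIF4EBP1 over EIF4E, EIF1 over EIF1B and EIF5A over EIF5A2. EIF4EBP1 over EIF4E was 7.58, 13.1 and 8.10 with overexpression, against 4.38, 3.52 and 9.93 with the vector, where the low EIF4E value of replicate 3 gave the highest ratio of that group.

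EIF1 guards start codon selection. It stood at 89.37, 95.93 and 92.96 FPKM in overexpression libraries, against 39.81, 41.85 and 44.32 FPKM in vector libraries (relative log2 0.87, SE 0.07, limma adjusted p = 0.000114). Its paralogue EIF1B stood at 9.81, 8.64 and 7.95 FPKM with overexpression, against 6.70, 4.77 and 4.74 FPKM with the vector (relative log2 0.40, SE 0.16, limma adjusted p = 0.0121), and was not called after median centring (adjusted p = 0.0512) or with cyclic loess (0.0717). With the length and GC correction EIF1B was at 0.04 log2 (adjusted p = 0.862). EIF1AX, the scanning factor eIF1A, had 26.45, 20.67 and 23.22 FPKM with overexpression, against 20.46, 18.86 and 20.36 FPKM with the vector (limma adjusted p = 0.120). EIF1AD, a protein with an eIF1A-like domain, fell. It had 5.61, 5.95 and 5.53 FPKM with overexpression, against 9.36, 7.56 and 7.21 FPKM with the vector (relative log2 -0.72, SE 0.12, limma adjusted p = 0.0191). The call was lost without overexpression replicate 1 or 3 (adjusted p up to 0.0639). EIF1AY was listed at 0.07 FPKM in a single overexpression library and at 0 in the others, below the filter.

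The late initiation factors were mixed, with 3 of 5 called higher and 0 lower, against 37.4% and 11.9% of all tested rows. EIF5B, the GTPase of subunit joining, stood at 20.27, 15.23 and 17.23 FPKM with overexpression, against 9.17, 9.46 and 10.65 FPKM with the vector (relative log2 0.55, SE 0.13, limma adjusted p = 0.00228). EIF5, the GTPase activator of eIF2, had 13.43, 9.67 and 21.26 FPKM with overexpression, against 15.95, 18.79 and 17.83 FPKM with the vector. Overexpression replicate 3 lay above and the other 2 below all vector libraries (relative log2 -0.57, 95% interval -1.18 to 0.04, limma adjusted p = 0.356). Without overexpression replicate 3 the unscaled log2 difference of -0.31 became -0.60 and EIF5 was called lower.

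EIF5A, which carries the hypusine residue and helps the ribosome over prolines, stood at 74.40, 80.83 and 76.22 FPKM with overexpression, against 57.00, 58.80 and 61.87 FPKM with the vector. The unscaled call (limma adjusted p = 0.00394) amounted to a relative log2 of 0.11, and with cyclic loess EIF5A was called lower, at -0.36 log2 (adjusted p = 0.00667). Its paralogue EIF5A2 had 3.40, 3.04 and 3.24 FPKM with overexpression, against 2.56, 2.88 and 2.84 FPKM with the vector (limma adjusted p = 0.182), and took 3.62% to 4.37% of the summed FPKM of EIF5A and EIF5A2 with overexpression and 4.30% to 4.67% with the vector. EIF5AL1, whose longest transcript aligned to that of EIF5A with 97.4% identical bases and so may share its reads, stood at 2.67 ± 0.231 FPKM with overexpression, against 1.54 ± 0.259 FPKM with the vector (SD, n = 3, limma adjusted p = 0.0104, and 0.0543 after median centring). EIF6, which keeps the large ribosomal subunit from joining too early, is held in the joined row EIF6;MMP24OS, at 9.45 ± 0.697 FPKM with overexpression, against 8.97 ± 1.76 FPKM with the vector (SD, n = 3).

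**Figure D5:**
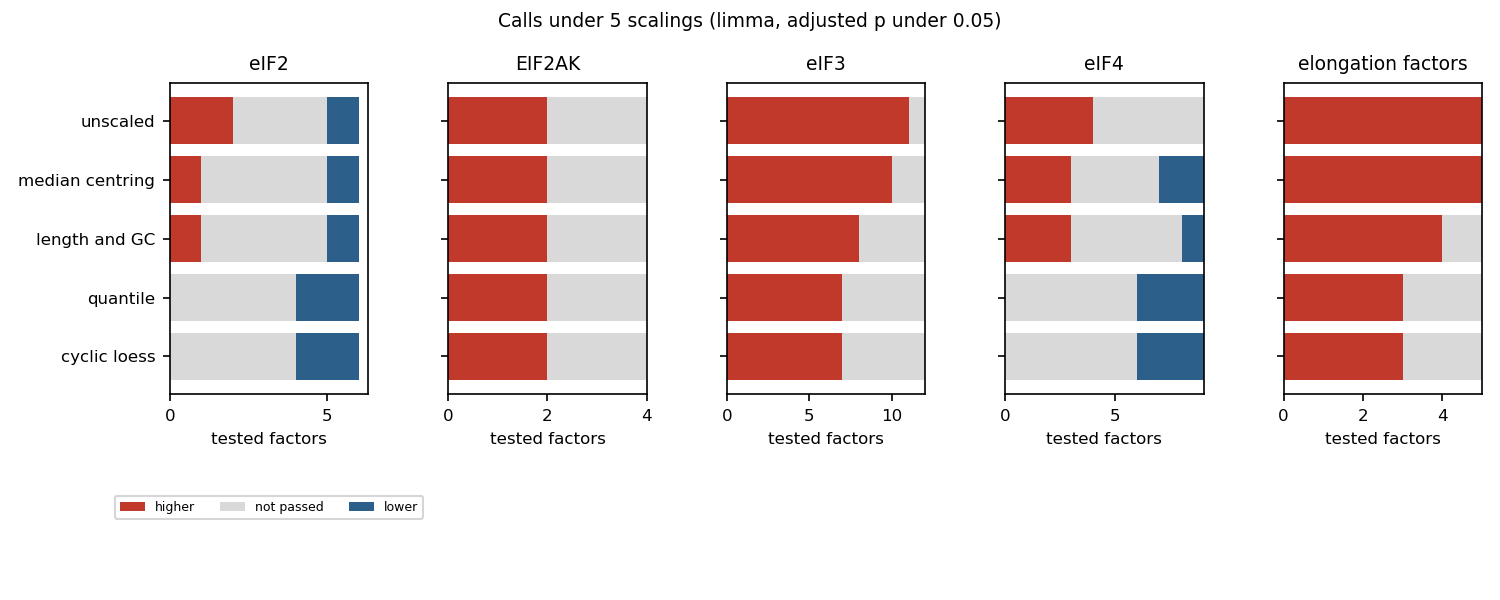
Number of tested factors called higher (red), called lower (blue) or not passed (grey) with limma in 5 role groups, unscaled and under 4 scalings of the libraries. The eIF3 group keeps at least 7 of 12 higher and the EIF2AK kinases 2 of 4, whereas eIF4 has 4 higher unscaled and 3 lower with quantile normalization or cyclic loess.

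RefSeq starts were found for 46 of the 59, of which 13 (28.3%) had the tract at 1 start at least. Of the 44 tested factors with a start 29.5% had it, against 7.92% of all 7130 tested rows with a start. Counted by single starts, 4.07% of the 35116 in the table have it. The 13 are EEF1A1, EEF1B2, EEF2, EIF2A, EIF2D, EIF2S3, EIF2S3B, EIF3D, EIF3F, EIF3K, EIF3M, EIF4A2 and EIF4B. Of these 9 were called higher and 1 lower, with a median relative log2 difference of 0.61. Of 31 tested factors with a start but no tract, 13 were called higher and 1 lower, with a median of 0.11. Tested factors without a start are in neither group, so the 2 groups are no split of all factors. Of these, EIF2AK1, EIF2S2, EIF3A, EIF3E, EIF3G, EIF3H, EIF3L, EIF4EBP1, EEF1A2 and EEF1D were called higher. EEF1AKMT1, EEF1AKNMT and EEF2KMT, also without a start, did not pass. The tract did not sort the factors completely, since EIF1, EIF4H and EIF3I were called higher without it and EIF2S3 and EIF2A carried it and did not pass.

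Level went with the tract. The factors with it had a median of 35.8 FPKM, against 9.29 FPKM in those with a start but no tract. The part of level in the difference was not tested separately. With cyclic loess 6 of the 13 were higher and 3 lower, against 5 higher and 5 lower of the 31. Over all 7130 tested rows with a start, those with the tract were called higher in 47.8% and those without in 36.9%. The factors and all genes with names beginning with RPL, RPLP or RPS and a number were then left out. The shares were 43.6% of 512 and 36.7% of 6510, with medians of 5.58 and 5.04 FPKM. A match in this window is no proof of a start used in these cells, and the RefSeq starts were not measured here.

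Other genes of translation and its control were taken from a list of 59, of which 49 had a row of their own and 48 were tested. Of these, 28 were called higher and 2 lower, against 37.4% and 11.9% of all tested rows, with a median relative log2 difference of 0.23. Median centring gave 19 higher and 5 lower, and cyclic loess 11 and 6. The largest difference was that of PPP1R15A (GADD34), which directs the phosphatase to eIF2 alpha, at 14.1 ± 2.40 FPKM with overexpression and 1.36 ± 0.608 FPKM with the vector (SD, n = 3), with a relative log2 of 2.74 (limma adjusted p = 0.000209). PPP1R15B, its constitutive counterpart, had a relative log2 of 0.24 (26.6 ± 0.849 FPKM with overexpression, against 18.5 ± 1.27 FPKM with the vector). With cyclic loess the PPP1R15B difference was 0.00 log2 (limma adjusted p = 0.983). ATF4, the transcription factor whose translation rises when eIF2 is phosphorylated, had 68.8 ± 3.03 FPKM with overexpression, against 36.3 ± 1.24 FPKM with the vector (SD, n = 3, relative log2 0.65, limma adjusted p = 0.000182).

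Among regulators of eIF4E and mTORC1, 8 of 12 were called higher and 0 lower, against 37.4% and 11.9% of all tested rows. Median centring left 5 higher and 1 lower, the length and GC correction 4 higher, and quantile normalization and cyclic loess 3 higher each. MKNK2, the kinase that phosphorylates eIF4E, averaged 19.8 ± 0.640 FPKM in overexpression libraries and 8.38 ± 1.23 FPKM in vector libraries (SD, n = 3), a relative log2 of 0.93 (limma adjusted p = 0.000439). MLST8, a subunit of mTORC1, was low, at 1.97, 3.05 and 3.28 FPKM with overexpression, against 1.20, 0.09 and 1.15 FPKM with the vector. Its relative log2 was 1.18, and its call was lost without overexpression replicate 2 or 3 and after median centring (adjusted p = 0.0526). RHEB, the activating GTPase of mTORC1, had a relative log2 of 0.87 and was not called with cyclic loess (limma adjusted p = 0.0579). SBDS, which with EFL1 releases eIF6 from new subunits, had a relative log2 of 1.81 with a wide spread, at 42.09, 37.10 and 39.11 FPKM with overexpression, against 28.11, 4.25 and 5.79 FPKM with the vector (limma adjusted p = 0.0296), and the call was lost when any library other than vector replicate 1 was left out. The poly(A)-binding protein gene PABPC1 averaged 205 ± 3.92 FPKM with overexpression and 118 ± 7.59 FPKM with the vector, a relative log2 of 0.53, and with cyclic loess PABPC1 was at -0.11 log2 (adjusted p = 0.249).

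The genes called lower were DPH6 and DPH7, enzymes that make diphthamide, the modified histidine of eEF2. DPH6 stood at 2.58 ± 0.331 FPKM in overexpression libraries and 7.47 ± 0.31 FPKM in vector libraries (SD, n = 3), a relative log2 of -1.64 (limma adjusted p = 0.000247), and DPH7 at 2.33 ± 0.127 FPKM with overexpression and 3.73 ± 0.3 FPKM with the vector (relative log2 -0.85, limma adjusted p = 0.00571). DPH2, DPH3, DPH5 and the deoxyhypusine hydroxylase gene DOHH were tested and did not pass, with relative log2 differences from -0.28 to 0.02. EEF2, the substrate of diphthamide synthesis, had the largest unscaled difference upward of all factors. With cyclic loess EEF2 was at 0.38 log2, below EIF3H at 0.96 log2. A link between EEF2 and the diphthamide genes was not tested.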

How the data were processed

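RNA of 6 MIA PaCa-2 libraries (3 LINC00901 overexpression, 3 vector) was compared. The submitters' processing notes name HISAT2, cutadapt, FastQC and the hg19 build, without versions. The authors deposited FPKM values with 2 decimals, and the tool that made them is not given in the sources used here. Rows that join several gene names were kept in the fit and left out of the factors. Low values showed no whole-read steps (20.5% and 21.6% of ratios of low values within 0.1 log2 of 1 or 2-fold in the overexpression and vector libraries), so the values were not treated as counts and the depth is unknown.

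Values were transformed to log2(FPKM + 0.5), which understates the change of low genes, and fitted over 9694 rows with an intensity trend (limma 3.58.1, R 4.3.3). Other steps used Python 3.11.15. Length and GC content came from the longest GENCODE 29 transcript by symbol (8830 rows, 91.1%), which is of another build than the authors' and was used for no coordinates. The start sequences are RefSeq's. The fit was tested on simulated data.

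Values in every library were to be given for the EIF2AK kinases, the fixed paralogue sets and the highest and lowest factor of each role group. The same held for the 6 highest and 6 lowest of all factors. Of the list of other translation genes, up to 5 called in each direction were to be named. PPP1R15B, PABPC1 and ATF4 were added after their values were seen. The factors, groups and lists were chosen with earlier results of these data known.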

Additional observations from a re-analysis of the deposited data

How the results depend on the processing

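The 19 alternatives changed the pseudocount, the filter, the scaling, the limma options, the rows, the threshold or the libraries, and every log2 value here is the unscaled or rescaled difference itself, overexpression minus vector. Against 32 factors called higher, cyclic loess and quantile normalization each gave 17 and the length and GC correction 20. Leaving out 1 library gave 29 to 33. Against 2 called lower, cyclic loess and quantile normalization gave 8, median centring 5, the length and GC correction 4, an adjusted p of 0.01 gave 0, and leaving out 1 library 1 to 2. Counts called higher under cyclic loess and quantile normalization were 0 and 0 for eIF2, 7 and 7 for eIF3, 0 and 0 for eIF4, 3 and 3 for the elongation factors, and 11 and 12 for the list of other translation genes. For eIF2, median centring, the length and GC correction, a mean of at least 5 FPKM and an adjusted p of 0.01 each gave 1. The list had 17 higher after the correction for length and GC content, and 16 at an adjusted p of 0.01. It had 6 lower with cyclic loess and with quantile normalization, 5 with median centring, 4 after correcting for length and GC content, and 1 with a mean of at least 5 FPKM. The causes were not tested.

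Signs turned as follows. With cyclic loess and quantile normalization the log2 differences were -0.12 and -0.13 for EEF1AKNMT, -0.05 and -0.07 for EEF2K, -0.27 and -0.26 for EIF1AX, -0.21 and -0.21 for EIF2AK2, -0.22 and -0.22 for EIF2B1, -0.24 and -0.21 for EIF3A, -0.23 and -0.22 for EIF4A2, -0.32 and -0.31 for EIF4A3, and -0.36 and -0.35 for EIF5A. EEF1A1 had -0.05 with quantile normalization. With the length and GC correction EEF1AKMT1 had -0.09, EEF2K -0.05, EIF2B1 -0.29, EIF4A3 -0.14, EIF4ENIF1 -0.05 and EIF5A -0.33. With median centring EEF1AKNMT had -0.08, EEF2K -0.06, EIF2B1 -0.13, EIF4A3 -0.11 and EIF5A2 -0.02. Leaving out 1 library gave ranges across 0 of -0.26 to 0.09 for EEF2KMT, -0.06 to 0.38 for EIF2AK2, -0.13 to 0.05 for EIF2AK3, -0.21 to 0.06 for EIF2S1, -0.13 to 0.10 for EIF2S3 and -0.02 to 0.78 for EIF3J.

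The shared replicate numbers did not pair the libraries, with correlations of deviations of -0.037, -0.00574 and -0.00503 between same-numbered libraries. A fit with the replicate number as a block gave 32 factors higher and 2 lower. Both pseudocounts, no filter, robust estimation and leaving out joined and repeated rows changed the call of 0 factors, and dropping the intensity trend changed 1. The groups hold 3 libraries each and the depth is unknown, so a difference that did not pass was not detectable here and is not shown to be absent.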

Other observations

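Some factor genes share a row with a neighbour, so their own level cannot be read. The row EEF1AKMT2;FAM53B, which includes a lysine methyltransferase gene of eEF1A, averaged 2.81 ± 0.153 FPKM in overexpression libraries and 4.21 ± 0.441 FPKM in vector libraries (SD, n = 3), with a relative log2 of -0.77, and was called lower (limma adjusted p = 0.0114). The row EEF1AKMT4;EEF1AKMT4-ECE2;ECE2, with another lysine methyltransferase gene of eEF1A, averaged 2.27 ± 0.534 FPKM in overexpression libraries and 1.18 ± 0.133 FPKM in vector libraries (SD, n = 3), with a relative log2 of 0.45, and was called higher (limma adjusted p = 0.0131). The row EEF1E1;BLOC1S5;TXNDC5, with a subunit gene of the multisynthetase complex, averaged 27.5 ± 1.16 FPKM with overexpression and 30.2 ± 1.58 FPKM with the vector and did not pass (limma adjusted p = 0.200).

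Ribosomal protein genes are the best known carriers of TOP starts. The set below was taken by names that begin with RPL, RPLP or RPS and a number. It can therefore hold genes of other proteins, such as the kinase gene RPS6KB2, and these were not separated. Of 64 tested genes named RPL or RPS with a RefSeq start, 38 of the 40 with the tract and 20 of the 24 without it were called higher, with median relative log2 differences of 0.89 and 0.60 and median levels of 75.7 and 42.9 FPKM. With cyclic loess 27 of the 40 and 9 of the 24 were. The mitochondrial elongation factor gene TUFM, a nuclear gene, averaged 97.1 ± 6.32 FPKM with overexpression and 48.1 ± 3.39 FPKM with the vector (SD, n = 3, relative log2 0.74, limma adjusted p = 0.000227). It was named after its values were seen.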
